A study of Mus musculus with 3 samples.

Results

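The genes described here encode the subunits of the mitochondrial respiratory chain and of the ATP synthase that are carried in the nuclear genome. Members were taken by symbol: every gene whose name began with Ndufa, Ndufb, Ndufc, Ndufs or Ndufv (Ndufaf assembly factors left out), Uqcr, Cox4 to Cox8 or Atp5, together with Sdha, Sdhb, Sdhc and Sdhd. This gave 89 of the 29994 gene symbols in the count matrices. Of these, 39 belonged to complex I, 4 to complex II, 8 to complex III, 19 to complex IV and 18 to complex V. Ndufa4 was placed with complex IV, of which it is a subunit despite its name, and Ndufa4l2, its relative, was kept outside the complexes.

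The study profiled single cells from mouse ventricles on the 10x Genomics platform, in a project on drug screening against cardiac fibrosis. There were 3 groups, all of genotype C57B6. The Sham group and the TAC group (the usual abbreviation of transverse aortic constriction, a surgical pressure overload of the left ventricle) both received vehicle. The TAC + ART group received the antimalarial compound artesunate. Ventricular tissue of 3 hearts was pooled per group and kept frozen before processing, and each group is 1 library. Whether whole cells or nuclei were loaded, the age and sex of the mice, and the dose and timing of artesunate are stated in none of the sources used here. With 1 library per group there is no replicate, so no p-value is given, and every comparison below is between these libraries.

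The libraries held 3752 barcodes and 17710689 unique molecular identifiers (UMIs, which count captured RNA molecules) for Sham, 7413 and 37658150 for TAC, and 6856 and 33364667 for TAC + ART. After filters and removal of predicted doublets, 3637, 6972 and 6480 cells remained, with library medians of 4310, 4811 and 4524.5 UMIs per barcode. The libraries shared 20 to 27 barcodes pairwise. Barcodes above 10000 UMIs were few (9, 3 and 9), against 161, 405 and 282 in the range of 1000 UMIs just below, and the sources used here give no rule for this. Cells were assigned to classes by marker genes, none of which is a respiratory chain member, and 7 classes held at least 50 cells in each library. Levels are given as CPM, the UMIs of a gene scaled to the same total of UMIs in every class, and differences as log2 ratios of CPM. Where 3 values stand together they are in the order Sham, TAC, TAC + ART. Brackets hold 95% intervals, which cover counting error only and not the spread between mice.

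The respiratory chain passes electrons from NADH (complex I) and succinate (complex II) through ubiquinone, complex III and cytochrome c to oxygen at complex IV. Complexes I, III and IV pump protons, and complex V uses the gradient to make ATP. Complex II pumps no protons, is also an enzyme of the tricarboxylic acid cycle, and is built from nuclear-encoded subunits alone, whereas the other complexes also need subunits encoded in mitochondrial DNA. The heart depends on oxidative metabolism, cardiomyocytes are packed with mitochondria, and complex IV has subunit isoforms of heart and skeletal muscle (Cox6a2, Cox7a1, Cox8b) as well as isoforms found in other settings, such as Cox4i2. The transcription factors NRF1 and NRF2 (also called GABP, of the ETS family) are known as activators of nuclear respiratory genes.

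Promoter sequences were available in RefSeq (build GRCm38.p6) for 70 of the 89 members. The 250 bases before the start were searched on both strands. The NRF1 motif (GCGC, any base, then TGCGC) was present in 12 of the 70 members (17.1%) and in 3.86% of the 27025 promoters in the table. The ETS core CCGGAAG was present in 11 (15.7%) against 7.05% of all promoters, and these motifs do not overlap in their letters. The shorter HIF core ACGTG was present in 15 (21.4%) against 16.6%. The YY1 motif AAGATGGC was in none of the 70 windows against 1.59% of all, and the estrogen-related receptor motif TCAAGGTCA in 1 (1.43%) against 0.366%.

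4 stretches are printed, 2 from complex I members with high TAC over Sham ratios in cardiomyocyte-like cells and 2 from complex II, the complex with the lowest ratio. Ndufb8 and Ndufa11 are accessory subunits of complex I, and Sdha and Sdhd are a catalytic and a membrane-anchor subunit of complex II. Capitals mark matches to the NRF1 motif or the ETS core. Only bases outside annotated exons of any gene are shown. Vmac, Ccdc127 and Timm8b have exons within the windows of Ndufa11, Sdha and Sdhd. The annotated Sdha gene itself also reaches into its window, up to position 74350280.
Ndufb8, chr19:44555443-44555692, minus strand: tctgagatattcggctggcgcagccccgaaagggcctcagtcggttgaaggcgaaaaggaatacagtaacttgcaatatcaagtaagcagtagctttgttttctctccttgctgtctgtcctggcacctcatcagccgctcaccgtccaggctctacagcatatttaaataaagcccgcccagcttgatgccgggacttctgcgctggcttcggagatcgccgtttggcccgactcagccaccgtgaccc
Ndufa11, chr17:56717686-56717761, plus strand: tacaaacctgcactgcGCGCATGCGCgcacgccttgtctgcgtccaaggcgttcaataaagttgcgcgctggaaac
Sdha, chr13:74350281-74350308, minus strand: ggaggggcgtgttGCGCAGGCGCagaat
Sdhd, chr9:50603850-50603909, minus strand: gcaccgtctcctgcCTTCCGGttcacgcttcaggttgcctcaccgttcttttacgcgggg
The Ndufb8 window held neither motif. The Ndufa11 match lay 60 bases before the start. Sdha had 3 NRF1 matches, of which 1 lies in the stretch shown, and Sdhd had 1 of each motif, of which the ETS core is shown. The Sdha match at 10 bases before the start lies within the annotated span of Sdha itself. A match is a description of letters and not a bound site.

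Cardiomyocyte-like cells numbered 302, 238 and 313 (Sham, TAC, TAC + ART), which was 8.30%, 3.41% and 4.83% of the cells. None of the 10 cardiomyocyte markers was at 0 in any library, and their summed level was 57551, 63468 and 62395 CPM. The members together made up 13932, 41195 and 18818 CPM of the class. The TAC library was therefore high against both of the others, with a log2 ratio of 1.56 (1.54 to 1.59) over Sham, while TAC + ART was 1.13 lower than TAC on the log2 scale, a ratio of -1.13 (-1.15 to -1.11). These comparisons share the TAC library, so a high or low TAC value moves both.

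In every library the members made up more of the RNA in cardiomyocyte-like cells than in any other class. In Sham the summed level was 1.91-fold that of endothelial-like cells and 2.59-fold that of fibroblast-like cells, and the other 4 classes fell between. The same ratios were 3.51 and 4.55 in TAC and 2.08 and 2.66 in TAC + ART, where endocardial-like cells gave the lowest ratio, 2.02. Outside cardiomyocytes the levels lay close together in Sham, from 5372 CPM in fibroblast-like to 7310 CPM in endothelial-like cells. All of these are sums over a class, and the typical Sham cell differed less. The median share of UMIs per Sham cell was 0.786% in cardiomyocyte-like, 0.658% in pericyte-like and 0.521% in fibroblast-like cells.

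**Figure D1:**
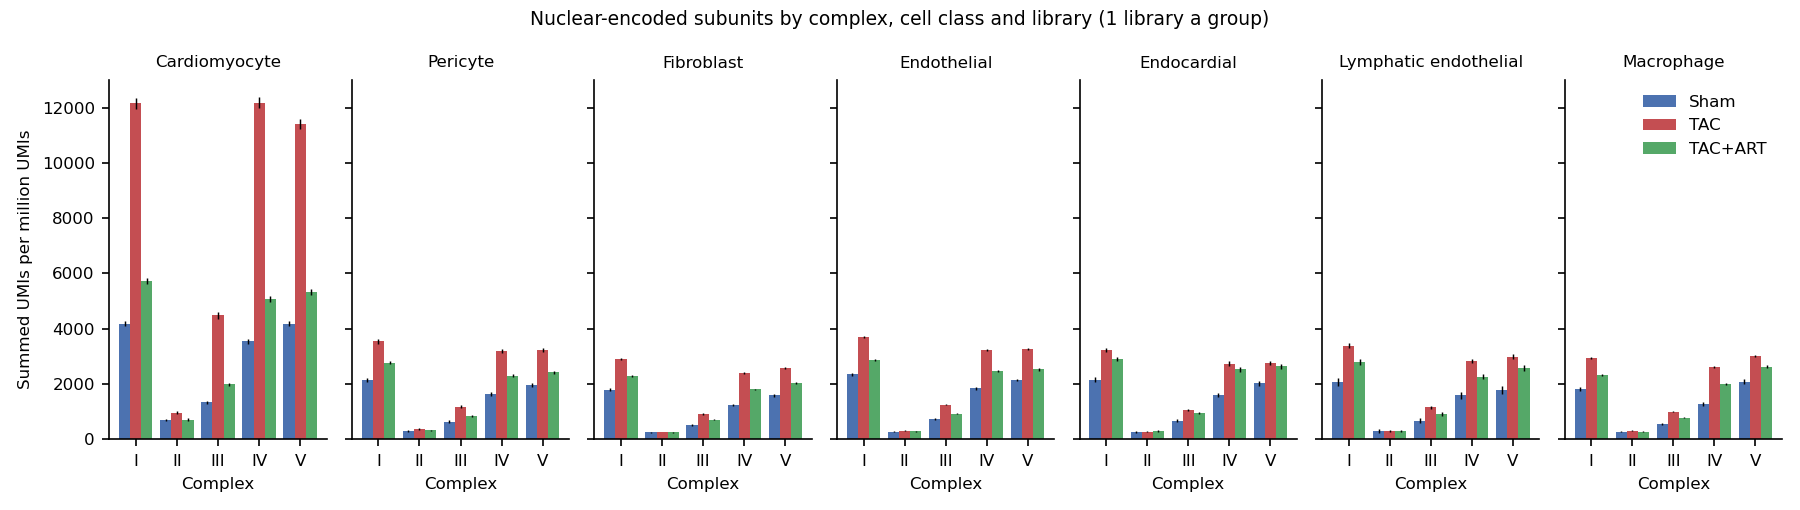
Summed level of the members of complexes I to V (CPM of the class, linear axis from 0) in 7 marker-gated classes, with 1 bar per library and 95% Poisson bars for counting error. In cardiomyocyte-like cells complexes I, III, IV and V were highest in TAC, and complex II was at 699.8, 962 and 707 CPM.

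The complexes did not move by the same amount. Complex IV, which reduces oxygen, summed to 3534, 12185 and 5078 CPM (Sham, TAC, TAC + ART), a log2 TAC over Sham ratio of 1.79 (1.75 to 1.83). Complex III, the cytochrome bc1 complex, summed to 1332, 4477 and 1983 CPM, with a ratio of 1.75 (1.68 to 1.82). Complex I, the NADH dehydrogenase, summed to 4184, 12156 and 5724 CPM, with a ratio of 1.54 (1.5 to 1.58). The proton-pumping complexes were thus 2.91-fold to 3.45-fold higher in the TAC library. Complex V, the ATP synthase, summed to 4179, 11407 and 5318 CPM, with a ratio of 1.45 (1.41 to 1.49).

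Complex II, succinate dehydrogenase, stood apart. It summed to 699.8, 962 and 707 CPM (Sham, TAC, TAC + ART), and its log2 TAC over Sham ratio was 0.46 (0.35 to 0.57). Its interval does not reach that of any other complex. Its share of all member UMIs was 5.02%, 2.34% and 3.76% (Sham, TAC, TAC + ART). TAC + ART over TAC was -0.44 (-0.56 to -0.33) for complex II on the log2 scale, against -1.09 for complex I, -1.17 for complex III, -1.26 for complex IV and -1.10 for complex V. TAC + ART over Sham was 0.01 (-0.09 to 0.12) for complex II and between 0.35 and 0.57 for the others.

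Single members were compared where they had at least 100 UMIs in both libraries together, which 82 of the 89 reached in cardiomyocyte-like cells for TAC over Sham. Of these, 81 were higher in TAC and 74 were higher by 1.5-fold or more, a size that 22.1% of the 5028 genes measured the same way reached. The median member ratio was 1.69 on the log2 scale and the median of all genes was -0.11. The count by complex was 34 of 37 for complex I, 1 of 4 for complex II, 8 of 8 for complex III, 15 of 15 for complex IV and 16 of 18 for complex V. Only Atp5o was lower by 1.5-fold or more, where 20.5% of all genes were. Its row is uncertain, because the matrices carry a further row, Atp5o.1, and GENCODE M21 has more than 1 entry for the name: Atp5o had 108, 53.0 and 65.4 CPM, and Atp5o.1 had 177, 527 and 225.

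**Figure D2:**
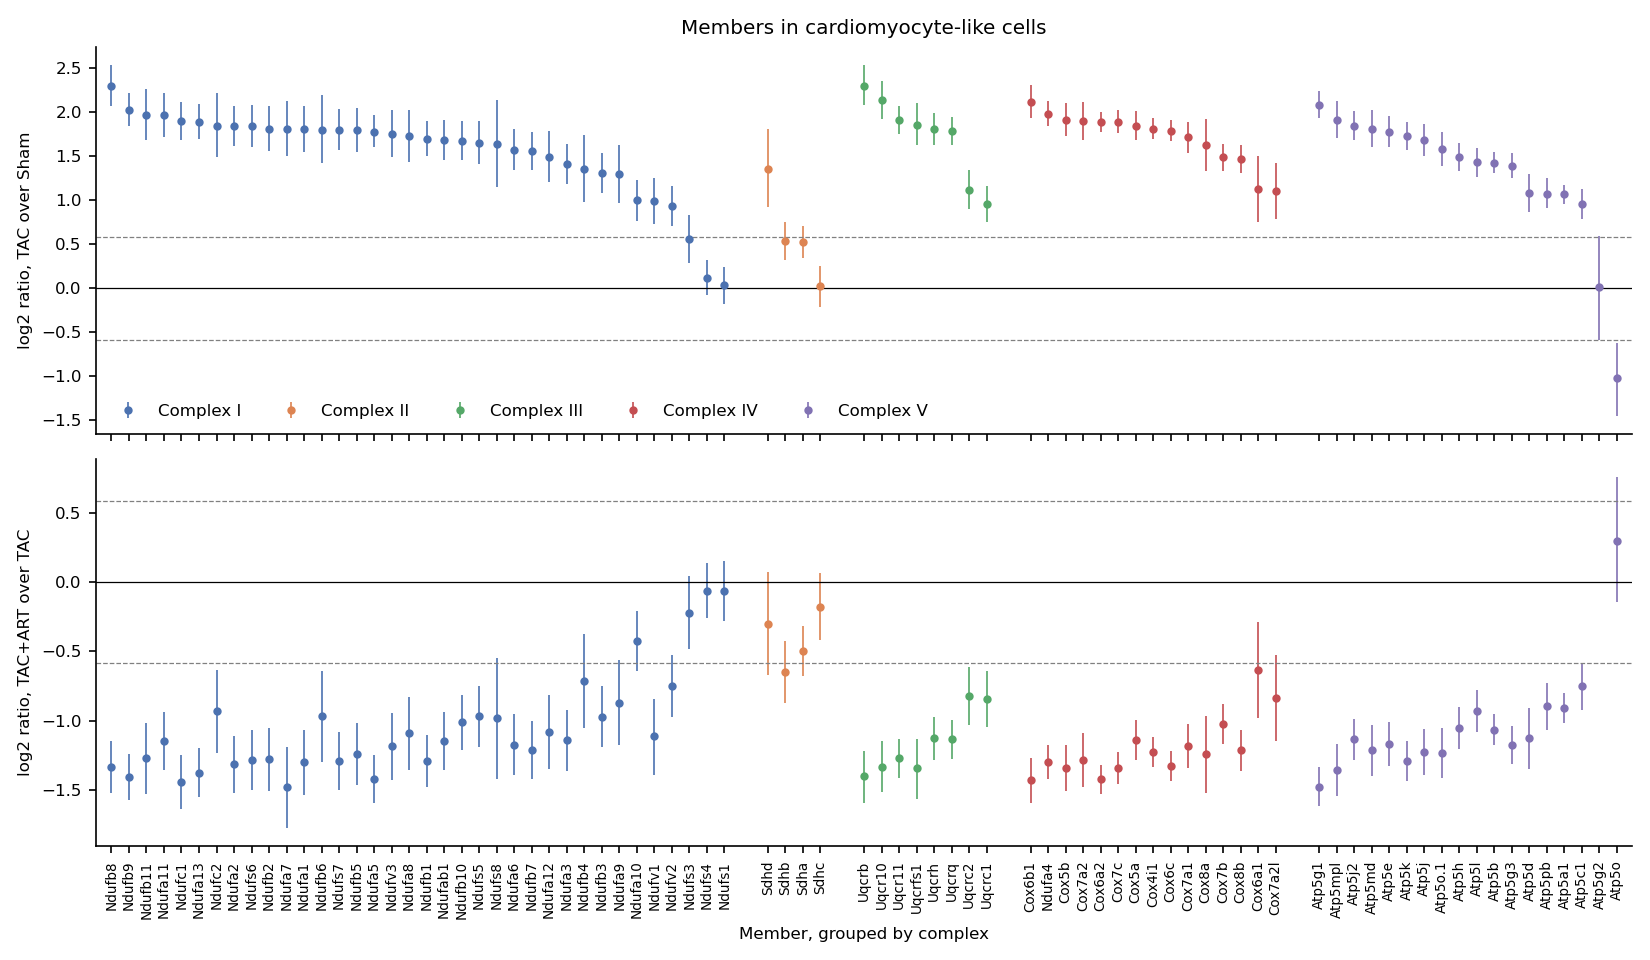
Log2 ratio of the measured members in cardiomyocyte-like cells, 1 of them not drawn, grouped by complex, with TAC over Sham on top and TAC + ART over TAC at the bottom, with 95% intervals for counting error and dashed lines at 1.5-fold. For TAC over Sham 74 of all 82 measured members exceeded the upper line, and Sdha, Sdhb and Sdhc of complex II, Ndufs1, Ndufs3 and Ndufs4 of complex I and Atp5g2 and Atp5o of complex V lie below it.

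In complex I the core subunits carry the redox centres and the accessory subunits surround them. The 7 nuclear-encoded core subunits together had a log2 TAC over Sham ratio of 1.01 (0.92 to 1.10), and the 32 accessory members 1.65 (1.61 to 1.69). The accessory members as counted take in Ndufs6b and Ndufb4c, which are annotated as processed pseudogenes. Values within separate kinds of cell are given further below. Ndufb8, an accessory subunit of the membrane arm (chr19:44548572-44555440), was at 101, 496 and 197 CPM (Sham, TAC, TAC + ART). That was the highest complex I ratio, 2.30 (2.07 to 2.54), with 206, 599 and 376 UMIs behind the levels. Ndufb9, also of the membrane arm, was at 165, 672 and 254 CPM and had a ratio of 2.03. Ndufa11, whose promoter stretch is printed above, was at 93.96, 366 and 165 CPM, with a ratio of 1.96 (1.71 to 2.21).

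At the other end of complex I, Ndufs1, the largest core subunit, was at 239, 244 and 234 CPM, and its log2 TAC over Sham ratio was 0.03 (-0.18 to 0.24). Ndufs4, an accessory subunit whose loss is a known cause of Leigh-like disease in mice, was at 263, 286 and 274 CPM, with a ratio of 0.12 (-0.08 to 0.32). For both genes the 3 libraries lay within counting error of each other. Between TAC and TAC + ART the lowest log2 ratios in complex I were those of Ndufa7, at -1.48 (63.6, 222 and 79.5 CPM), and Ndufc1, at -1.44 (132, 490 and 180.0 CPM).

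Succinate dehydrogenase has 4 subunits. Sdha, the flavoprotein that binds succinate (chr13:74322254-74350280), was at 271, 389 and 275 CPM (Sham, TAC, TAC + ART), a log2 TAC over Sham ratio of 0.52 (0.34 to 0.70). Sdhb, the iron-sulfur subunit (chr4:140961203-140979193), was at 192, 278 and 177 CPM, a ratio of 0.54 (0.32 to 0.75). TAC was the highest library for both catalytic subunits, by less than 1.5-fold. Sdhc, a membrane anchor (chr1:171127165-171150603), was at 202, 205 and 181 CPM, with a ratio of 0.02 (-0.22 to 0.25). Sdhd, the other anchor (chr9:50596357-50603812), was at 35.2, 90.3 and 73.3 CPM from 72, 109 and 140 UMIs, with a ratio of 1.35 (0.92 to 1.81). Sdhd was the complex II member past 1.5-fold in TAC over Sham, and its log2 TAC + ART over TAC ratio of -0.30 (-0.67 to 0.07) reached 0 within counting error. The TAC + ART over TAC ratios of Sdhb and Sdha were -0.65 and -0.50.

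In complex III all 8 members were higher by 1.5-fold or more in TAC. Uqcrb, a small subunit near the ubiquinone site (chr13:66900617-66905378), was at 106, 520 and 197 CPM (Sham, TAC, TAC + ART), a log2 TAC over Sham ratio of 2.30 (2.07 to 2.53). Uqcr10, another small subunit, was at 120.4, 527 and 209 CPM, with a ratio of 2.13. The large core proteins Uqcrc1 and Uqcrc2 were the lowest of the complex, with ratios of 0.95 (186, 360 and 199.9 CPM) and 1.12 (154, 335 and 189 CPM). Uqcrfs1, the Rieske iron-sulfur protein that passes electrons to cytochrome c1, was at 106, 384 and 151 CPM, with ratios of 1.85 over Sham and -1.34 for TAC + ART over TAC. The small and the Rieske subunits were thus further above Sham than the core proteins.

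In complex IV the highest log2 TAC over Sham ratios were those of Cox6b1, which faces the intermembrane space, at 2.11 (161, 695 and 258 CPM), and Ndufa4 at 1.98 (282, 1110 and 452 CPM). Cox4i1, the ubiquitous isoform of the largest nuclear-encoded subunit, was at 403, 1410 and 604 CPM, a ratio of 1.81. The lowest were Cox7a2l, a factor that joins complexes III and IV into supercomplexes, at 1.10 (71.4, 153 and 85.8 CPM), and Cox6a1, the non-muscle isoform, at 1.12 (53.3, 116 and 74.8 CPM). All 15 measured members of complex IV had TAC as the highest library. Cox6b2, the testis isoform, had 0, 1 and 1 UMIs, where 0 UMIs is under the floor of 3.

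In complex V the highest ratio was that of Atp5g1, which encodes the c subunit of the rotating membrane ring (chr11:96068852-96075670). It was at 230.0, 973 and 349.6 CPM (Sham, TAC, TAC + ART), a log2 TAC over Sham ratio of 2.08 (1.92 to 2.24). It was followed by Atp5mpl, a small subunit of the membrane part, at 1.91 (135, 505 and 197 CPM). The ring subunit is encoded by 3 genes with the same mature protein, and they differed: Atp5g3 was at 321, 842 and 373 CPM, a ratio of 1.39, while Atp5g2 was at 33.8, 34.0 and 26.7 CPM, a ratio of 0.02 (-0.59 to 0.59). The catalytic head subunits had ratios of 1.06 for Atp5a1 (588, 1230 and 656 CPM), 1.42 for Atp5b (453, 1214 and 580.4 CPM) and 0.95 for Atp5c1 (252, 487 and 289 CPM).

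In the artesunate library the pattern ran the other way. Of 81 measured members 80 were lower than in the TAC library, and 73 were lower by 1.5-fold or more, against 18.6% of 4874 genes. The median log2 ratio was -1.15 for the members and 0.02 for all genes. By complex, 1 of 4 complex II members passed 1.5-fold, against 33 of 37 in complex I, 8 of 8 in complex III, 15 of 15 in complex IV and 16 of 17 in complex V. Levels in TAC + ART stayed above those of Sham for most members: 75 of 82 were higher and 25 were higher by 1.5-fold or more, against 8.18% of genes, with a median of 0.50 against -0.03.

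Several other properties of the cardiomyocyte-like cells moved together with the members. Malat1, a long noncoding RNA that stays in the nucleus, was at 120719, 86259 and 105692 CPM (Sham, TAC, TAC + ART), a log2 TAC over Sham ratio of -0.48. Transcripts of the cytoplasmic ribosomal proteins, which are also short and abundant, were at 5058, 17424 and 8616 CPM, a ratio of 1.78, higher than that of all members together. The median UMI count per cell was 7494, 4734.5 and 6167. A cluster named from cardiomyocyte markers held 80.5% of the Sham class, 40.8% in TAC and 67.7% in TAC + ART. A further cluster named from cardiomyocyte markers held 11.9%, 36.6% and 18.5%. Another cluster, named from fibroblast markers, held 4.64%, 16.8% and 10.2%. Fibroblast markers summed to 737, 2566 and 2286 CPM in the cardiomyocyte-like cells, against 11938 to 14989 CPM in fibroblast-like cells. With cells taken by cluster in place of the gate the log2 ratios of all members were 1.63 for TAC over Sham and -1.03 for TAC + ART over TAC. Relative to the ribosomal protein transcripts the members were at -0.22 and -0.11, so the direction of TAC over Sham turned under that scaling. The part of cell makeup, Malat1 content and depth in the member ratios was not tested beyond these values and the split that follows.

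Single cells were then divided at 5% of their UMIs from Malat1, a split chosen after seeing the data. Of the cardiomyocyte-like cells, 236 of 302 Sham cells lay above it (78.1%), 95 of 238 TAC cells (39.9%) and 204 of 313 TAC + ART cells (65.2%). The member level was 7979, 13800 and 8814 CPM above the split and 59413, 78904 and 60362 CPM below it (Sham, TAC, TAC + ART). Cells below the split thus had 7.45, 5.72 and 6.85 times the member level of those above it. Within 1 percentage point of the split lay 8, 6 and 3 cells above it and 9, 1 and 9 below it. For complex II the same factor was 2.93, 2.86 and 2.74, and for complex IV it was 9.61, 6.19 and 8.31. So complex II was also the complex that differed least between the kinds of cell within a library. The cells below the split were shallower, with medians of 3066.5, 3072 and 2940 UMIs against 8080.5, 7437 and 8113.5.

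**Figure D3:**
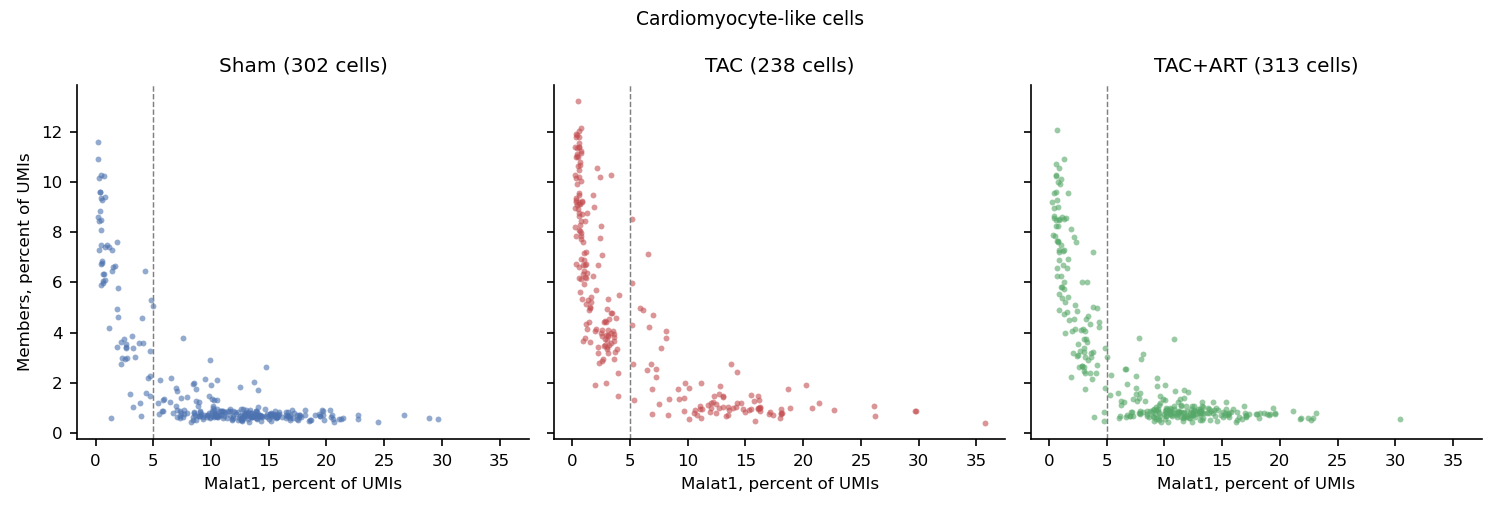
Each point is 1 cardiomyocyte-like cell, placed by the percent of its UMIs from Malat1 (x axis) and from the 89 members (y axis), in 1 panel per library with a dashed line at 5%. Cells right of the line made up 78.1%, 39.9% and 65.2% of the class, and the cells with the highest member shares lie left of it.

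Across cells the share of UMIs from the members ran from 0.534% (5th percentile) through a median of 0.786% to 7.61% (95th percentile) in Sham, with medians of 4.02% in TAC and 1.01% in TAC + ART. Spearman's rho between this share and the Malat1 share was -0.68 over the 302 Sham cells, -0.90 over the 238 TAC cells and -0.78 over the 313 TAC + ART cells. Between the shares of complex I and complex V it was 0.72, 0.95 and 0.84. Within the cells above the split the rho of these complexes was 0.45, 0.73 and 0.49, and within those below it 0.89, 0.90 and 0.89. Between the member share and the share of ribosomal protein transcripts rho was 0.75, 0.91 and 0.89 over all cardiomyocyte-like cells. These are descriptions of cells that share a library, and both shares come from the same UMIs of a cell.

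Within the cells above the split, the log2 TAC over Sham ratio of all members was 0.79 (0.75 to 0.83), and within those below it 0.41 (0.38 to 0.44), against 1.56 over all cardiomyocyte-like cells. Above the split, complex IV was at 1.11, complex III at 0.93, complex I at 0.79 and complex V at 0.63. Complex II was at -0.08 (-0.26 to 0.09) there and at -0.12 (-0.29 to 0.06) below the split, so within either kind of cell complex II did not differ between Sham and TAC beyond counting error. The other complexes lay between 0.30 and 0.55 below the split. The core and accessory members of complex I were at 0.20 (0.05 to 0.35) and 0.95 (0.88 to 1.03) above the split. Below it they were at 0.36 (0.22 to 0.50) and 0.45 (0.39 to 0.51), with overlapping intervals. Above the split 53 of 76 measured members were higher by 1.5-fold or more, against 11.7% of genes, with a median of 0.91 against -0.09. Below it 20 of 80 were, against 18.8% of genes, which is near the share of all genes, although 74 of 80 were higher by some amount and the median was 0.44 against 0.06.

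For TAC + ART over TAC the log2 ratio of all members was -0.65 (-0.68 to -0.61) above the split and -0.39 (-0.41 to -0.36) below it. Above the split 49 of 76 members were lower by 1.5-fold or more, against 10.3% of genes. Below it 8 of 80 were, against 6.71%. Complex II was at -0.03 above the split and -0.09 below it. The ribosomal protein transcripts moved in the same way, at 1.29 and 0.50 for TAC over Sham above and below the split, higher than those of the members in each.

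**Figure D4:**
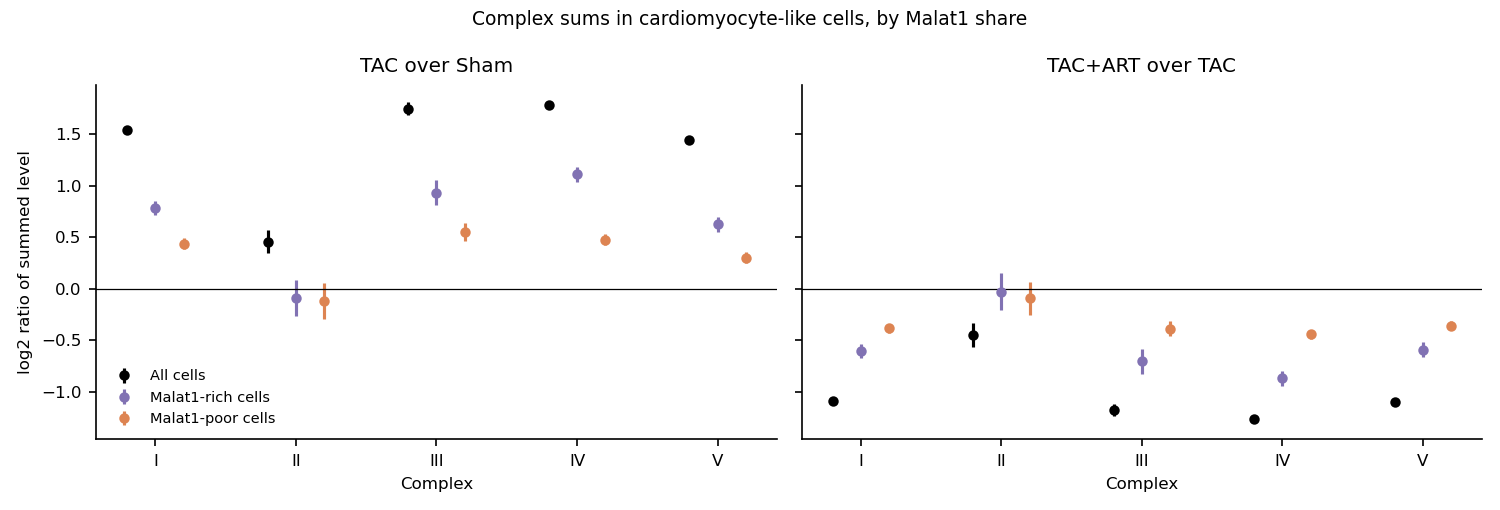
Log2 ratio of each complex in cardiomyocyte-like cells for both comparisons, over all cells and over the cells above and below 5% Malat1, with 95% intervals for counting error. In TAC over Sham for all cells complex IV is at 1.79 and complex II at 0.46, and within the kinds of cell complex II lies at -0.08 and -0.12, while the other complexes stay above 0 in this comparison.

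Ndufb8 was at 43.2, 150.2 and 66.2 CPM above the split in Sham, TAC and TAC + ART, and at 541, 973 and 739 CPM below it, giving log2 TAC over Sham ratios of 1.80 and 0.84. Uqcrb had ratios of 1.38 and 1.07, and Cox6a2 1.21 and 0.47. These 3 genes were higher in TAC within both kinds of cell. Sdha was at 219, 220.3 and 206 CPM above the split and 664, 620.2 and 561 CPM below it, with ratios of 0.01 and -0.10. Atp5a1, the alpha subunit of the ATP synthase head, had a ratio of 0.48 above the split and -0.05 below it, although it was 1.06 over all cardiomyocyte-like cells. Sdhd had 46, 21 and 62 UMIs above the split, under the minimum for TAC over Sham. Below it Sdhd had 26, 88 and 78 UMIs and a ratio of 0.64, the complex II member past 1.5-fold there.

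Nppa, which encodes atrial natriuretic peptide and is known to be induced in stressed ventricular muscle, was detected in 23 of 302, 190 of 238 and 109 of 313 cardiomyocyte-like cells. Cells with an Nppa UMI had 28026, 44613 and 25997 CPM of members, and cells without one 13047, 26461 and 15359 CPM. TAC was the highest library in both, and TAC + ART lay below Sham among cells with an Nppa UMI and above it among cells without one. The share of cells above the Malat1 split was 52.2%, 35.8% and 56.0% among cells with an Nppa UMI and 80.3%, 56.3% and 70.1% among those without, so the groups differ in that share as well.

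Members with short genes had higher ratios than members with long ones. Gene span was the distance from start to end in GENCODE M21, which uses the same assembly as mm10. Among all measured genes under 10 kb the median log2 TAC over Sham ratio in cardiomyocyte-like cells was 1.23, among those of 10 to 25 kb it was 0.27, and among longer genes -0.24. The members in the same bins had medians of 1.79 (54 genes), 1.57 (18 genes) and 0.52 (5 genes). The member median was above that of all genes of the same span in each of the 3 bins. For TAC + ART over TAC the all-gene medians were -0.81, -0.26 and 0.15, and those of the members -1.21, -1.08 and -0.43. Across 77 members Spearman's rho between span and TAC over Sham ratio was -0.45, as a description.

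Of the members with ratios near 0, Ndufs4 spans 100464 bp, Ndufs1 33238 bp and Sdhc 23439 bp, but Atp5g2 spans 9489 bp. Sdha, with a ratio of 0.52, spans 28027 bp and Sdhb, with 0.54, 17991 bp, while Ndufb8 spans 6869 bp, Uqcrb 4762 bp and Sdhd, the member of complex II past 1.5-fold, 7456 bp. Without complex II the members of 10 to 25 kb had a median of 1.67 and those above 25 kb, 4 genes, 0.56. What part gene span has in the difference between complex II and the other complexes was not tested. Members whose promoter window held the NRF1 motif shown above had a median TAC over Sham ratio of 1.57 (12 genes), against 1.69 for the 56 measured members whose window lacked it. The corresponding values were 1.55 and 1.68 for the ETS core.

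In the other classes the members were also higher in TAC than in Sham, by less. Their summed level was 6751, 11634 and 8752 CPM in pericyte-like cells for Sham, TAC and TAC + ART, a log2 TAC over Sham ratio of 0.79 (0.75 to 0.82). It was 5372, 9056 and 7079 CPM in fibroblast-like cells, a ratio of 0.75 (0.73 to 0.78). Endothelial-like cells were at 7310, 11728 and 9059 CPM, a ratio of 0.68 (0.66 to 0.70). In all of these TAC + ART lay between Sham and TAC. Macrophage-like cells were at 6010, 9832 and 7986 CPM (0.71), lymphatic endothelial-like cells at 6371, 10642 and 8827 CPM (0.74), and endocardial-like cells at 6697, 10056 and 9320 CPM (0.59). The log2 TAC + ART over TAC ratio was -0.41 in pericyte-like, -0.36 in fibroblast-like, -0.37 in endothelial-like, -0.30 in macrophage-like, -0.27 in lymphatic endothelial-like and -0.11 in endocardial-like cells.

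Counted by member, TAC over Sham passed 1.5-fold upward for 58 of 82 in pericyte-like cells (9.3% of all genes), 60 of 83 in fibroblast-like (16.3%) and 54 of 82 in endothelial-like cells (10.2%). It did so for 40 of 79 in endocardial-like cells (10.1%), 52 of 75 in lymphatic endothelial-like (13%) and 57 of 82 in macrophage-like cells (11.6%). The member medians lay between 0.60 and 0.87, and the all-gene medians between -0.04 and 0.03. For TAC + ART over TAC, 17 of 82 members were lower by 1.5-fold or more in pericyte-like cells (3.93%), 6 of 83 in fibroblast-like (6.74%) and 3 of 82 in endothelial-like cells (5.02%). In endocardial-like cells 1 of 79 was (6.34%), in lymphatic endothelial-like cells 8 of 79 (5.58%) and in macrophage-like cells 5 of 82 (5.53%). Outside pericyte-like and lymphatic endothelial-like cells these counts are near or below the share of all genes, although the member medians of -0.38 in fibroblast-like and endothelial-like and -0.36 in macrophage-like cells lie under all-gene medians of -0.05, -0.02 and -0.07.

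The log2 TAC over Sham ratio of complex IV lay between 0.78 and 1.03 in these classes. Complex II stood lowest in them as well. Its ratio was 0.30 (0.13 to 0.47) in pericyte-like, 0.16 (0.05 to 0.27) in endothelial-like and 0.16 (0.01 to 0.32) in macrophage-like cells. In fibroblast-like cells it was 0.02 (-0.11 to 0.15), in endocardial-like cells -0.01 (-0.23 to 0.21) and in lymphatic endothelial-like cells -0.02 (-0.32 to 0.30). Sdha itself was at 135, 119.9 and 121 CPM in fibroblast-like cells and at 129, 138 and 120.5 CPM in macrophage-like cells. Its log2 TAC over Sham ratios there were -0.17 (-0.35 to 0.01) and 0.09 (-0.14 to 0.32), each within counting error of 0.

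The members at the ends were partly the same from class to class. Atp5g1 had the highest log2 TAC over Sham ratio in pericyte-like cells, 1.52 (85.8, 246 and 143 CPM), and in endothelial-like cells, 1.30 (98.1, 241 and 154 CPM), and was second in macrophage-like cells, 1.45 (71.3, 195 and 130.1 CPM). Cox7a2, the non-muscle isoform of its pair, was highest in macrophage-like cells at 1.49, from 59, 754 and 362 UMIs. Ndufb9 at 1.37 followed Atp5g1 in pericyte-like cells, and Cox7b, a small subunit of complex IV, followed it at 1.12 in endothelial-like cells. In endocardial-like cells Uqcrfs1 (1.29) and Ndufb6 (1.18), an accessory subunit of complex I, were highest, and in lymphatic endothelial-like cells Atp5md (1.58), a small subunit of the ATP synthase, and Uqcrc2 (1.57), each from fewer than 20 UMIs in Sham.

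At the low end of TAC over Sham were Ndufs3 at -0.13 in pericyte-like, Atp5g2 at -0.32 in fibroblast-like and -0.09 in endothelial-like, Ndufs1 at -0.13 in macrophage-like, Sdhc at -0.41 in endocardial-like and Ndufs4 at -0.52 in lymphatic endothelial-like cells. The uncertain Atp5o was at -0.67 in macrophage-like, -0.93 in endocardial-like, -0.21 in lymphatic endothelial-like and -0.06 in endothelial-like cells. For TAC + ART over TAC the lowest ratios were Cox5b (-0.83) in pericyte-like, Uqcr10 (-0.68) and Atp5d (-0.67) in fibroblast-like, and Uqcr10 (-0.67) and Atp5g1 (-0.65) in endothelial-like cells. In macrophage-like cells they were Ndufa8 (-0.61) and Ndufb2 (-0.60), in endocardial-like cells Ndufa8 (-0.67) and Atp5g1 (-0.54), and in lymphatic endothelial-like cells Ndufa7 (-1.06) and Ndufb11 (-0.85). Subunits of several complexes stood at either end, and no complex II member was among the highest TAC over Sham ratios or the lowest TAC + ART over TAC ratios named here.

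These classes also held transcripts that cardiomyocytes make. The heart isoforms Cox6a2, Cox7a1 and Cox8b together reached 32.2%, 18.5% and 32.3% of their cardiomyocyte-like level in macrophage-like cells. In endothelial-like cells they reached 42.2%, 21.6% and 40.9%. Myl2, the ventricular myosin light chain and no member, reached 24.7%, 18.0% and 28.8% in macrophage-like cells, while Ttn, which encodes the giant sarcomere protein titin, reached 3.63%, 3.93% and 3.78%. The share of Cox6a2 in its pair with Cox6a1 was 79.0%, 84.2% and 81.3% in macrophage-like cells. The level of Cox6a2 in these cells was 148 CPM in Sham and 296 in TAC, and TAC was the highest library as in cardiomyocyte-like cells. What part such transcripts have in the member ratios of the other classes was not tested. The ribosomal protein transcripts had log2 TAC over Sham ratios of 1.02 in pericyte-like, 1.23 in fibroblast-like, 0.78 in endothelial-like and 1.07 in macrophage-like cells, each above that of the members. In endocardial-like cells it was 0.52, below that of the members.

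The isoform pairs in cardiomyocyte-like cells kept a similar balance while their levels differed between libraries. Cox6a2 was at 455, 1684 and 628 CPM, and its share of the UMIs of the pair with Cox6a1 was 89.5% (87.5 to 91.3), 93.6% (92.4 to 94.6) and 89.4% (87.6 to 91.0). The TAC share lay above the others beyond counting error, but this order turned when cells with a UMI after thinning to 1000 UMIs were counted in place of UMIs, at 83.0%, 80.5% and 85.0%. Cox7a1 was at 196, 642 and 283 CPM, and Cox7a2 at 124, 461 and 189 CPM. The share of Cox7a1 was 61.2%, 58.2% and 59.9%. Cox8b was at 269, 742 and 319.8 CPM, Cox8a at 73.9, 228 and 96.3 CPM, and the share of Cox8b was 78.5%, 76.5% and 76.9%. The Cox7a and Cox8 shares overlapped between libraries within their intervals. A share of a pair depends on how well each transcript is captured, so it is compared between libraries and classes and not read as a ratio of proteins.

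**Figure D5:**
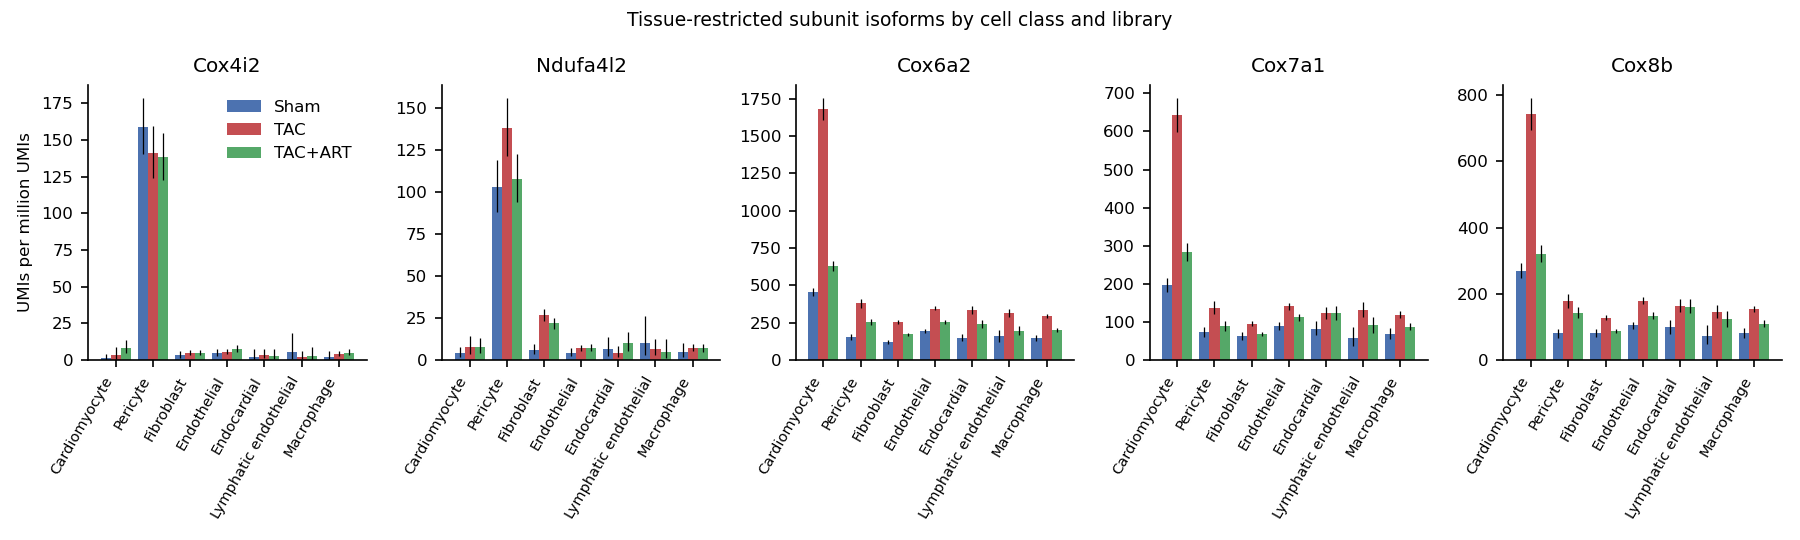
Level (CPM of the class) of Cox4i2, Ndufa4l2, Cox6a2, Cox7a1 and Cox8b by class and library, with 95% Poisson bars for counting error. Cox4i2 and Ndufa4l2 are highest in pericyte-like cells (159 and 103 CPM in Sham), and the 3 heart isoforms in cardiomyocyte-like cells.

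Cox4i2 and Ndufa4l2 had another distribution. Cox4i2 is the isoform of Cox4i1 known from lung and from oxygen-sensing vascular cells, and Ndufa4l2 is a relative of Ndufa4 known as a hypoxia-induced gene. In pericyte-like cells Cox4i2 was at 159, 141 and 138 CPM (Sham, TAC, TAC + ART), while in the other classes it lay between 1.47 and 8.37 CPM. The pericyte-like cells held 272 of the 318 Cox4i2 UMIs of all Sham cells, 254 of the 423 of TAC cells and 294 of the 481 of TAC + ART cells. Cox4i2 was detected in 44.0%, 47.5% and 43.4% of pericyte-like cells against 1.68%, 2.31% and 3.06% of endothelial-like cells, at median depths of 4030, 4757.5 and 4324 against 3621, 4171 and 3895.5 UMIs. After thinning each cell to 1000 UMIs the shares were 12.98%, 14.1% and 12.1% against 0.628%, 0.685% and 0.969%.

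The level of Cox4i2 in pericyte-like cells did not differ between libraries beyond counting error, with a log2 TAC over Sham ratio of -0.17 (-0.43 to 0.08). The TAC + ART over TAC ratio was -0.03 (-0.27 to 0.22). Cox4i1 in these cells was at 202, 375 and 283 CPM, a ratio of 0.89 (0.70 to 1.08). The share of Cox4i2 in the pair was 44.0% (40.1 to 48.0), 27.3% (24.5 to 30.3) and 32.8% (29.7 to 36.0). Ndufa4l2 was at 103, 138 and 108 CPM, a ratio of 0.42 (0.14 to 0.71), and Ndufa4 at 109, 254 and 159 CPM, a ratio of 1.23 (0.98 to 1.48). The share of Ndufa4l2 in this pair was 48.6%, 35.2% and 40.3%. In both pairs the share was lowest in TAC, where the partner gene was higher. Cox4i1 and Ndufa4 are also among the transcripts that cardiomyocyte-like cells hold at a higher level.

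Ndufa4l2 had the highest log2 TAC over Sham ratio of any member in fibroblast-like cells, 2.14 (1.43 to 3.04). It was at 5.90, 26.8 and 21.8 CPM (Sham, TAC, TAC + ART), from 15, 225 and 172 UMIs. The share of fibroblast-like cells with a UMI was 2.85%, 13.6% and 11.1% at median depths of 4910, 6271 and 5523 UMIs. After thinning to 1000 UMIs it was 0.813% (0.222 to 2.07), 2.66% (1.87 to 3.66) and 2.30% (1.58 to 3.23), against 0.327%, 0.770% and 0.432% in macrophage-like cells. The thinned Sham and TAC intervals overlap narrowly. Different clusters held most of the class in each library, 58.9% in 1 cluster for Sham, 83.8% in another for TAC and 60.03% in a further one for TAC + ART. Cox4i2, the other gene high in pericyte-like cells, was at 3.15, 4.76 and 5.06 CPM in fibroblast-like cells. Uqcrb followed Ndufa4l2 there with a ratio of 1.49 (43.3, 122 and 83.1 CPM).

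Other genes of the pathway in cardiomyocyte-like cells were read from lists, with the same minimum of 100 UMIs and the same background of 22.1% for higher and 20.5% for lower in TAC over Sham. Of the subunits encoded in mitochondrial DNA, 12 of 12 measured were higher in TAC and 10 by 1.5-fold or more, with a median log2 ratio of 0.997. mt-Nd4 was at 932, 3175 and 1486 CPM (1.77), mt-Nd6 at 28.4, 119.3 and 73.3 CPM (2.06), and mt-Nd3 at 108, 120.1 and 83.7 CPM (0.15). All 12 were lower under artesunate than in the TAC library, with a median of -0.67. Mitochondrial transcripts were therefore higher in TAC together with the nuclear members of the same complexes.

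The assembly factors, which build the complexes without staying in them, were mixed. Of 21 measured, 13 were higher in TAC, 9 by 1.5-fold or more, and 2 were lower by that much, with a median of 0.37. Uqcc3, a complex III assembly factor, had the highest ratio, 2.51 (11.7, 67.9 and 27.7 CPM), and Ttc19, which also acts on complex III, the lowest, -0.92 (149, 78.7 and 116 CPM). Among the 14 measured genes of electron carriers and coenzyme Q synthesis, 11 were higher, 5 by 1.5-fold or more, with a median of 0.28. Cycs, cytochrome c, was at 126, 511 and 217 CPM (2.02), and Coq3, a methyltransferase of ubiquinone synthesis, at 87.1, 42.3 and 58.1 CPM (-1.03).

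Of 14 measured transcriptional regulators of mitochondrial genes, 12 were lower in TAC than in Sham, as were 2823 of all 5028 genes, with a median of -0.38 against -0.11. Lower by 1.5-fold or more were 3 of the 14, which is near the 20.5% of all genes. Esrrb, an estrogen-related receptor, was lowest at 207, 113 and 156 CPM (-0.87). Ppargc1a, the coactivator PGC-1 alpha, was at 728, 447 and 616 CPM (Sham, TAC, TAC + ART), a log2 ratio of -0.70. Esrrg, a relative of Esrrb, was at 1513, 931 and 1458 CPM (-0.70), and Ppara, a receptor for fatty acids, at 412, 285 and 425 CPM (-0.53). The exceptions were Slirp, an RNA-binding protein of mitochondria, at 20.6, 63.0 and 17.3 CPM (1.61), and Perm1 at 85.6, 147 and 88.4 CPM (0.78). For TAC + ART over TAC, 11 of 13 were higher, against 2506 of 4874 genes, with a median of 0.27 against 0.02. Within the cells above 5% Malat1, 8 of 11 measured regulators were lower in TAC than in Sham, against 2186 of 3814 genes, with a median of -0.27 against -0.09 and none past 1.5-fold. Below the split only 3 were measured, with a median of -0.03.

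Of the tricarboxylic acid cycle enzymes 13 of 14 were higher in TAC, 10 by 1.5-fold or more (median 0.78), with Mdh2, malate dehydrogenase, highest at 1.31 (166, 412 and 208 CPM), and for TAC + ART over TAC all 14 were lower (median -0.67). All 7 genes of adenine nucleotide and phosphate exchange were higher in TAC, 4 by 1.5-fold or more (median 0.93). Slc25a4, the heart ADP/ATP carrier, was at 978, 2943 and 1305 CPM (1.59). For the mitochondrial ribosome 31 of 36 measured genes were higher, 28 by 1.5-fold or more (median 1.26), with Mrpl34 at 2.10 and Mrpl1 at -1.04 at the ends. Of the cytoplasmic ribosomal proteins, 74 of 75 were higher by 1.5-fold or more (median 1.89), and Rpl3l, the striated muscle paralog, was the exception at -0.56 (250.1, 169 and 222 CPM). Of the hypoxia-induced list only 3 of 9 genes were measured: Vegfa was at 564, 327 and 563 CPM (-0.78), Bnip3 at 0.65 and Pdk1 at 0.45.

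Within the cells above 5% Malat1 the lists separated. Cytoplasmic ribosomal proteins had a median TAC over Sham ratio of 1.47 over 46 measured genes, the members 0.91 over 76, and the mitochondrially encoded subunits 0.56 over 11. The tricarboxylic acid cycle enzymes had a median of 0.29 over 13 genes, the exchange genes 0.05 over 6, and the mitochondrial ribosome -0.27 over 9. Of the mitochondrial ribosome genes 7 of 9 were lower in TAC there, where 2186 of all 3814 measured genes were. Below the split 10 of 10 mitochondrial ribosome genes were higher (median 0.43), against 649 of 1204 genes, and the mitochondrially encoded subunits were divided, with 6 higher and 6 lower (median -0.07). As summed levels, however, the mitochondrially encoded subunits were higher in TAC in both kinds of cell, at 0.78 above the split and 0.23 (0.19 to 0.28) below it. The direction of the mitochondrial ribosome median thus depended on the kind of cell. The genes that reached the UMI minimum were taken separately in each.

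The members that were not measured in cardiomyocyte-like cells for TAC over Sham were low everywhere or restricted. Ndufs6b, Cox6c2 and Ndufb4c are annotated as processed pseudogenes and had at most 7 UMIs in any cardiomyocyte-like library. Their reads can come from the parent gene. Cox7b2, a testis isoform, had 22, 5 and 11 UMIs there, and Cox4i2 and Ndufa4l2 had 3 to 16.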

How the data were processed

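For each of the 3 libraries the authors deposited a matrix of raw UMI counts, made with Cell Ranger on build mm10, with Seurat also named, per the submitters' processing notes. Versions and cell calling are stated in none of the sources used here. Barcodes with under 500 UMIs, under 300 genes or over 10% mitochondrial UMIs were dropped (2, 1 and 0 barcodes in Sham, TAC and TAC + ART). Doublets were called from 2 simulated doublets per barcode, 2000 variable genes and 30 components, taking 0.8% per 1000 barcodes, which removed 113, 440 and 376. Each cell was scored for each class by the mean, over its markers, of the z-score of the log level against all cells. Each z-score was capped at 3. A cell joined its highest class when that score was at least 0.2 and at least 3 markers were detected. The score also had to lead every unrelated class by 0.2, or 0.8 for cardiomyocytes, whose transcripts occur in all cells. This scoring rule was set after seeing the data. Cells passing no gate numbered 832, 1177 and 1107. For cardiomyocytes 21, 35 and 33 cells lay near the gate limit.

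Counts were summed per class and library. Ratios add 0.5 UMIs to each library and use genes with at least 100 UMIs in both libraries together. Intervals are 95% (exact Poisson for levels, Clopper-Pearson for shares, conditional binomial for ratios) and cover counting error only, since UMIs of 1 library share its cells and amplification. No test was made, because each group is 1 pooled library. The 89 members, the gene lists and the comparisons were chosen with earlier results of these data known. Genes named are the isoform pairs, Sdha to Sdhd, the 2 highest and 2 lowest of each complex and list in cardiomyocyte-like cells, and the 2 highest and 2 lowest members in each other class. The values of 1 member are not reported here singly, though it is in all sums and counts. Names and values of Ndufs3, Ndufa11, Atp5a1, Atp5b, Atp5g3, Cox4i1, Esrrg, Nppa, Myl2 and Ttn where outside that rule were chosen after their values were seen. Gene spans are from GENCODE M21 (28522 of 29994 symbols matched) and promoters from RefSeq GRCm38.p6. The ratio code was tested on simulated data. Python 3.11.15, numpy 2.4.6, scipy 1.17.1, pandas 2.3.3, scikit-learn 1.9.0, scanpy 1.11.5, python-igraph 0.11.9 and matplotlib 3.10.9 were used. Alternatives were clusters in place of the gate, a stricter gate, kept doublets, cells up to 8000 UMIs, other scalings, means over cells, thinning to 1000 UMIs, other UMI and fold limits, and the Malat1 split and ribosomal scaling added later.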

Additional observations from a re-analysis of the deposited data

Results flagged for a closer look

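The 832, 1177 and 1107 cells of Sham, TAC and TAC + ART that passed no marker gate, and entered no comparison above, held 7057, 16427 and 13983 CPM of respiratory chain members. The log2 TAC over Sham ratio in these cells was 1.22, and this signal lies in data outside the classes described. Tnnt2, the cardiac troponin T gene, was at 619, 904 and 1119 CPM there and Ttn at 1697, 2392 and 3885 CPM. Their part in the ratio was not tested.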

How the results depend on the processing

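Values are log2 ratios of summed levels, TAC over Sham and then TAC + ART over TAC. With clusters in place of the marker gate all members were at 1.63 and -1.03 in cardiomyocyte-like cells, 0.73 and -0.29 in endothelial-like and 0.78 and -0.28 in macrophage-like cells, and TAC + ART over TAC was -0.29 in fibroblast-like cells. Complexes I, III, IV and V were at 1.60, 1.82, 1.88 and 1.51, then -0.97, -1.08, -1.15 and -1.02, and the Cox6a2 share in TAC + ART was 91.0%. With a stricter gate all members were at 1.71 and -1.33 in cardiomyocyte-like cells, 0.72 (TAC over Sham) in fibroblast-like and 0.65 in endothelial-like cells, and these complexes at 1.69, 1.92, 1.95 and 1.59, then -1.28, -1.39, -1.48 and -1.31. In cells of at most 8000 UMIs all members were at 1.39 and -0.80 in cardiomyocyte-like, 0.84 and -0.39 in fibroblast-like and 0.72 and -0.41 in endothelial-like cells and -0.33 (TAC + ART over TAC) in macrophage-like cells, and the complexes at 1.38, 1.54, 1.57 and 1.28, then -0.78, -0.82, -0.89 and -0.76, with complex II at -0.33. Relative to the median of all genes the members were at 1.67 and -1.15 in cardiomyocyte-like, 0.72 and -0.30 in fibroblast-like and 0.73 and -0.35 in endothelial-like cells and -0.23 in macrophage-like cells, and the complexes at 1.64, 1.85, 1.89 and 1.55. As means over cells they were at 1.33 and -0.86 in cardiomyocyte-like, 0.85 and -0.44 in fibroblast-like and 0.72 and -0.39 in endothelial-like cells. Isoform shares were also taken from cells holding a UMI after thinning to 1000 UMIs, in place of UMIs. The Cox4i2 share in pericyte-like cells was then 35.2% in TAC and 29.2% in TAC + ART, and the Ndufa4l2 share 46.2% in TAC. TAC was thus no longer the lowest library in either pair. In cardiomyocyte-like cells the Cox6a2 share was then 83.0%, 80.5% and 85.0%, with TAC lowest and no longer highest. The Cox7a1 share was 56.4% in Sham and 54.98% in TAC, and the Cox8b share 73.4%, 68.5% and 70.9%. Among alternatives chosen after seeing the data, cells above 5% Malat1 gave 0.79 and -0.65 for all members and 0.79, -0.084, 0.93, 1.11 and 0.63, then -0.60, -0.030, -0.70, -0.87 and -0.59 for complexes I to V, with 53 members higher and 49 lower by 1.5-fold against 74 and 73 over all cells. Cells below it gave 0.41 and -0.39, and 0.44, -0.12, 0.55, 0.48 and 0.30, then -0.38, -0.092, -0.39, -0.44 and -0.36, with 20 and 8 members. Complex II for TAC over Sham changed sign in both, with intervals that include 0 (-0.26 to 0.09 and -0.29 to 0.06). Relative to the ribosomal protein genes all members turned direction for TAC over Sham, at -0.22 in cardiomyocyte-like, -0.48 in fibroblast-like, -0.094 in endothelial-like and -0.36 in macrophage-like cells, and were at -0.11, 0.064, -0.10 and -0.10 for TAC + ART over TAC, turned in fibroblast-like cells. The cause was not tested. Keeping doublets, totals without mitochondrial, Malat1 and ribosomal UMIs, Ndufa4 with complex I, and a minimum of 20 UMIs moved no value past its limit. Lower or higher fold limits change the counts of members past them. For TAC + ART over TAC the member median passed the lower fold limit in fibroblast-like, endothelial-like and macrophage-like cells, where few members passed 1.5-fold. No paired analysis was possible because each group is 1 library. Depth limits Sdhd, Atp5g2, Cox4i2 and Ndufa4l2 outside pericyte-like cells, and lymphatic endothelial-like cells of Sham, of which there were 80.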
